A study of Verbena bonariensis with 6 samples.

Results

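AP2-like and AINTEGUMENTA-like developmental factors are plant transcription factors that share the AP2 DNA-binding domain and mostly act in the building of organs and meristems. Their clusters of transcripts were followed in roots of Verbena bonariensis with and without cadmium. A gene cluster of the deposited table was a member if its family was AP2-EREBP and its best Swiss-Prot hit was described as AP2-like, APETALA 2, RAP2-7 or BABY BOOM. This gave 100 of 8147 regulator clusters, out of 425 in the AP2-EREBP family. The rule reads annotation only, though the group was picked for study with earlier results of these data known. The 100 clusters carried 14 Swiss-Prot names and 43 best hits in the NR protein database, and 97 had the Pfam AP2 domain in their annotation. By name, 44 were of the AINTEGUMENTA type, 36 of the APETALA 2 type and 20 were other AP2-like clusters.

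RNA came from roots of 2-month-old plants of the strain Finesse, with 3 control libraries to which no cadmium solution was given and 3 cadmium libraries at 100 mg/kg, harvested after 20 days. Both groups were pot-grown in a greenhouse under the same day length, and the control plants carried no other treatment. The labels call the 3 libraries of a group biological replicates, and do not say whether a library holds the roots of 1 plant or of several. The comparison addressed which regulators differ in transcript level under soil cadmium.

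In Arabidopsis, PLETHORA proteins (PLT1, PLT2) and BABY BOOM (BBM) are AINTEGUMENTA-type factors that build up around the root tip and keep its stem cells and dividing cells going. AINTEGUMENTA itself (ANT) promotes the growth of lateral organs, mostly known from the shoot. APETALA 2 (AP2) and its relatives RAP2-7 (also called TOE1) and TOE2 are known from flower patterning and from holding back flowering, and the microRNA miR172 targets their transcripts. All of these roles come from Arabidopsis, and the Verbena clusters carry the names by sequence similarity alone.

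The 6 libraries held from 1092183 to 1340255 regulator counts each, with the lowest total in cadmium and the highest in control, and the members took 0.451 to 0.505% of them in control and 0.370 to 0.409% in cadmium. Regulators took 6.45 to 6.52% of the whole library in control and 5.23 to 5.53% in cadmium. Of the root regulators chosen as markers, the SHORT-ROOT clusters summed to 892 to 1041 CPM in control and 712 to 930 CPM in cadmium, and the SCARECROW clusters to 150 to 248 CPM and 316 to 449 CPM. CPM here are counts scaled to the regulator total of each library after TMM scaling. Among shoot and flower markers, the AGAMOUS, GLOBOSA and YABBY clusters each stayed at or below 7.32 CPM in every library. The DEFICIENS clusters, of a flower MADS-box gene, were at 90.7 to 126 CPM in control and 369 to 543 CPM in cadmium, and the GLK clusters, of chloroplast regulators, at 2207 to 2402 and 1569 to 1724 CPM. Over the whole shoot and flower list, 2 of 15 tested clusters rose and 2 fell, and the part of these markers in the results was not tested. LEAFY, APETALA 3, PISTILLATA, WUSCHEL, MYB36 and ROOT HAIR DEFECTIVE 6 matched no cluster by name.

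Summed by name, PLT1, PLT2, AIL5, AIL7 and BBM1 were higher in cadmium roots, and AP2, ANT and At2g41710 were lower. Counts were added over all clusters with the same best Swiss-Prot protein, so that reads divided among clusters of 1 name are counted together. Reads can still be divided between names, since some clusters with the same best NR protein carry different Swiss-Prot names. These were the 5 names that rose and the 3 that fell among the 13 that could be tested. Over all 1501 proteins tested the same way, 28.8% rose and 27.9% fell (edgeR quasi-likelihood, Benjamini-Hochberg adjusted p below 0.05). A sum low in 1 group can pass the count filter through the other group, as BBM1 did through its cadmium libraries. The number of names that rose or fell therefore carries no weight of its own. The names that did not pass were RAP2-7, TOE2, AIL1, BBM and At1g16060, and BBM2 was too low to be tested.

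**Figure D1:**
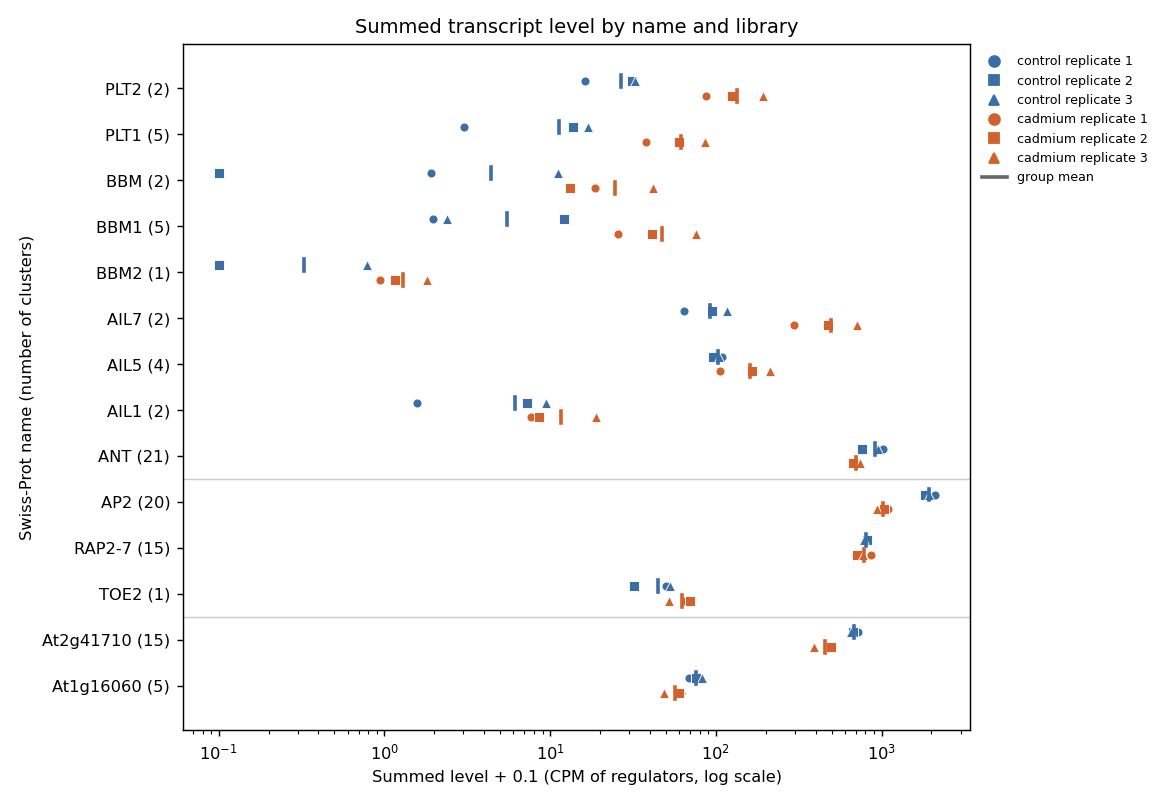
Summed level of the clusters of each of the 14 Swiss-Prot names in every library, as CPM plus 0.1 on a log axis, with 1 point per library and a bar at the mean of each group of 3. The 3 cadmium libraries lie above the 3 control libraries for PLT1, PLT2, AIL7, BBM and BBM1, and for BBM2, which was too low to be tested. They lie below them for AP2, ANT, At2g41710 and At1g16060, while the groups overlap for RAP2-7, TOE2, AIL1 and AIL5.

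At the level of single clusters, 52 of the 100 members had enough counts for the test, 43 were detected at lower counts, and 5 were at 0 in all 6 libraries. The test found 3 members higher and 13 lower in cadmium (edgeR quasi-likelihood, Benjamini-Hochberg adjusted p below 0.05 over all 4844 clusters tested). Over all clusters tested, 30.5% were called, 15.8% higher and 14.6% lower, beside 30.8% of the 52 members, 5.77% higher and 25% lower. The libraries of the groups lay apart in 32 of the 52 members, or 61.5%, beside 53.5% of all clusters tested. The other 216 tested AP2-EREBP clusters, mostly ethylene-responsive and dehydration-responsive factors, had 54 higher and 63 lower. The median log2 fold change of the 52 members was −0.48, and −0.08 over all regulators tested.

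Of 22 tested AINTEGUMENTA-type clusters, 3 rose and 1 fell, with a median log2 fold change of −0.26. With whole-library totals that balance turned to 2 higher and 4 lower. Of 19 tested APETALA 2 type clusters, 0 rose and 8 fell, with a median of −0.58. Of the 11 other AP2-like clusters tested, 0 rose and 4 fell, with a median of −0.88. Neither of the latter subgroups had a higher cluster at an unadjusted p below 0.05, with DESeq2 or with limma on log2(FPKM + 1), and at that unadjusted p 11 and 6 clusters were lower. For reading the counts by these other rules here and below, the unadjusted p called 20.9% of all clusters tested higher and 20.9% lower. DESeq2 called 21.2% higher and 20.3% lower, and limma 14.6% and 29.8%. The difference between subgroups was not tested. All of these values are set against the regulators as a whole. Whole-library totals moved the median log2 fold change of all regulators by −0.351. On that scale 2 members were higher and 21 lower, beside 10.9% and 23.1% of all clusters tested.

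**Figure D2:**
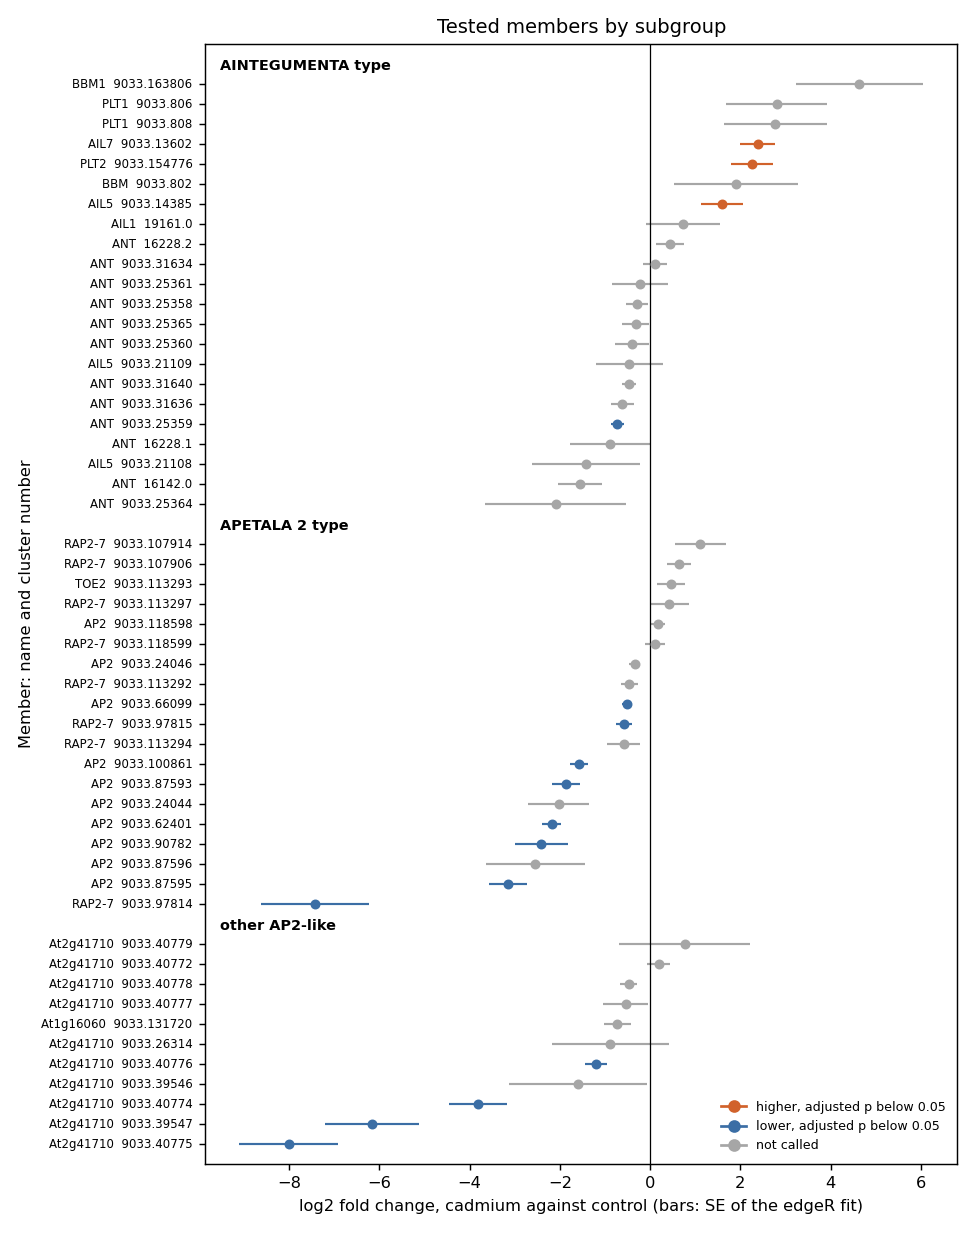
Log2 fold change of cadmium over control for each of the 52 tested members, with bars of 1 standard error, grouped by subgroup and coloured by whether the cluster passed as higher, passed as lower or did not pass. The 3 higher clusters are all of the AINTEGUMENTA type, and the 13 lower clusters are 8 of the APETALA 2 type, 4 named At2g41710 and 1 named ANT; the fitted positions of RAP2-7 Cluster-9033.97814 and At2g41710 Cluster-9033.40775, at 0 in all cadmium libraries, depend on the prior count of the fit.

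A cluster each of AIL7, PLT2 and AIL5 rose in cadmium roots, and the summed levels of PLT1 and BBM1 rose as well. The AIL7 cluster (Cluster-9033.13602, 2675 bases), named after an AINTEGUMENTA-like gene with a part in shoot and lateral root development, has the AIL6 protein of sesame as its best NR hit. It stood at 64.4, 96.3 and 120 CPM in the control libraries and at 296, 459 and 710 CPM in the cadmium libraries. All 3 cadmium libraries were above all 3 controls, by 2.38 ± 0.39 in log2 (± SE, n = 3 per group, edgeR quasi-likelihood, Benjamini-Hochberg adjusted p = 0.00593). The call held when any 1 of the 6 libraries was left out and with whole-library totals (log2 fold change 2.04). Its second, short cluster (Cluster-9033.159328, 428 bases) was too low for the test and was named after its values were seen, at 0, 0 and 0.372 CPM in control and 2.04, 14.9 and 9.60 CPM in cadmium.

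PLT2, a keeper of the root stem cells, had 1 tested cluster (Cluster-9033.154776, 2457 bases). It stood at 16.1, 31.5 and 33.4 CPM in control and 78.5, 111 and 195 CPM in cadmium. The groups did not overlap, and the cluster rose by 2.25 ± 0.46 in log2 (± SE, n = 3 per group, edgeR quasi-likelihood, Benjamini-Hochberg adjusted p = 0.0139), a call that held without any 1 library. The other PLT2 cluster (Cluster-9033.12040) was at 0 in the 3 control libraries and at 8.95, 14.0 and 0 CPM in cadmium. Against a floor of 3 counts over the control group it was at least 9.60-fold higher in cadmium, with 1 cadmium library also at 0.

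PLT1, BBM and BBM1 were spread over 12 low clusters, of which 4 could be tested and none of those 4 passed singly in edgeR. At an unadjusted p below 0.05, 2 of the 4 were higher, and DESeq2 and limma on log2(FPKM + 1) each called 3 higher. Their levels are given here although the naming rule did not select them, and they were chosen after their values were seen. The BBM1 cluster Cluster-9033.163806 was at 0, 0 and 2.35 CPM in control and 8.93, 15.5 and 41.2 CPM in cadmium, with no overlap (log2 fold change 4.64 ± 1.41, edgeR quasi-likelihood, Benjamini-Hochberg adjusted p = 0.0527). The PLT1 clusters Cluster-9033.806 and Cluster-9033.808 were at 0 to 8.04 CPM in control and at 12.05 to 45.4 CPM in cadmium, with log2 fold changes of 2.81 ± 1.12 and 2.77 ± 1.14 (adjusted p = 0.111 and 0.12 in the same test). The clusters that pass a count filter while near 0 in control do so through their cadmium libraries, so their number carries no weight of its own.

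Summed by name, PLT1 was at 2.93, 13.7 and 16.9 CPM in control and 37.9, 59.9 and 86.5 CPM in cadmium. The sum rose by 2.45 ± 0.57 in log2 (± SE, n = 3 per group, edgeR quasi-likelihood over name sums, Benjamini-Hochberg adjusted p = 0.00605). BBM1, named after the BABY BOOM gene first known from embryos grown out of pollen in Brassica, summed to 1.86, 11.9 and 2.28 CPM in control and 25.5, 40.9 and 76.1 CPM in cadmium. That sum rose by 3.10 ± 0.71 (adjusted p = 0.0056 in the same test). The PLT1, BBM1, PLT2 and AIL7 sums all passed with whole-library totals and without any 1 library, settings tried for the sums after the data were seen. BBM, with 2 clusters, summed to 1.80, 0 and 11.1 CPM in control and 18.4, 13.1 and 41.6 CPM in cadmium. The groups lay apart but the sum did not pass (log2 fold change 2.54 ± 1.01, adjusted p = 0.0601), and without control replicate 3 it did.

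A sum over best NR proteins split the same clusters in another way. The 7 BBM and BBM1 clusters share 1 sesame protein described as AIL1, and together stood at 3.64, 11.96 and 13.6 CPM in control and 43.7, 53.5 and 118 CPM in cadmium. They rose by 2.89 ± 0.54 in log2 (± SE, n = 3 per group, edgeR quasi-likelihood over NR sums, Benjamini-Hochberg adjusted p = 0.00147). Of the 26 NR proteins with members that could be tested, 7 rose and 11 fell, beside 30.4% and 29.9% of all 2072 NR sums. These counts carry the same limit, since sums low in control pass the count filter through cadmium. The 15 clusters named PLT1, PLT2, BBM, BBM1 or BBM2, a group put together after the values were seen, summed to 22.7, 57.6 and 65.4 CPM in control and 170, 241 and 404 CPM in cadmium. The mean of that sum was 5.59-fold higher in cadmium, or 4.42-fold with whole-library totals. Cadmium replicate 3 was the highest library for AIL7, PLT2, PLT1 and BBM1 alike.

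Levels of other root regulators are given beside these genes, against a background of 15.8% of regulators higher and 14.6% lower. SOMBRERO, a root cap regulator in Arabidopsis, summed over 9 clusters to 30.7, 76.9 and 42.8 CPM in control and 384, 649 and 650 CPM in cadmium, and 4 of its 6 tested clusters rose. WOX5, which marks the quiescent centre of the root tip, was at 0.732, 4.05 and 1.62 CPM in control and 13.6, 18.7 and 16.4 CPM in cadmium over 3 clusters that were too low for the test. LBD16, which acts in the first steps of lateral root formation, summed to 53.4, 103 and 68.7 CPM in control and 538, 800 and 764 CPM in cadmium. It holds 8 of the 16 clusters of a lateral root list given below, and was picked out with its values known. No cluster of another name on that list was called in edgeR. The SCARECROW sum was higher in all 3 cadmium libraries, with 0 of 4 clusters called in edgeR and 1 higher with DESeq2, limma or an unadjusted p below 0.05. SHORT-ROOT had 0 of 5 called in edgeR, 3 lower at an unadjusted p below 0.05, 2 lower with DESeq2 and 4 lower with limma. BEARSKIN, another root cap regulator, was at 22.7 to 46.0 CPM in control and 18.7 to 26.2 CPM in cadmium. LATERAL ROOT PRIMORDIUM (LRP1) summed over 3 clusters to 1774, 1686 and 1648 CPM in control and 2052, 2443 and 2908 CPM in cadmium. Of its 3 tested clusters, 1 rose and 0 fell in edgeR, and limma called 0 higher and 1 lower. Over the whole root marker list, 5 of 19 tested clusters rose and 0 fell in edgeR, or 8 and 4 at an unadjusted p below 0.05, 8 and 3 with DESeq2 and 6 and 5 with limma. The list summed to 2870 to 3071 CPM in control and 3497 to 4977 CPM in cadmium. What part a changed share of root tips or primordia had in the PLETHORA and BABY BOOM levels was not tested, and in bulk root RNA the number of cells of a type and the RNA per cell cannot be told apart.

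**Figure D3:**
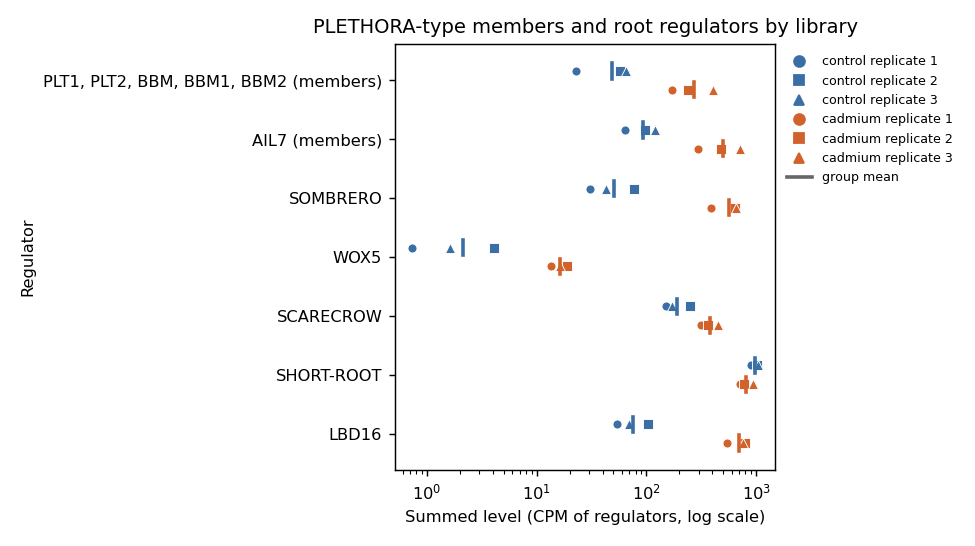
Summed CPM on a log axis in each of the 6 libraries for the 15 PLT1, PLT2, BBM, BBM1 and BBM2 clusters together, for AIL7, and for the root regulators SOMBRERO, WOX5, SCARECROW, SHORT-ROOT and LBD16. The PLETHORA and BABY BOOM sum, AIL7, SOMBRERO, WOX5, SCARECROW and LBD16 are higher in all 3 cadmium libraries than in any control, and SHORT-ROOT overlaps between the groups. BEARSKIN and LRP1 of the root marker list and the rest of the lateral root list are not drawn.

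AIL5, a close relative with a part in lateral root formation in Arabidopsis, had clusters that differed from each other. Cluster-9033.14385 stood at 25.8, 55.8 and 46.5 CPM in control and 70.6, 127 and 191 CPM in cadmium. The groups did not overlap and it rose by 1.60 ± 0.47 in log2 (± SE, n = 3 per group, edgeR quasi-likelihood, Benjamini-Hochberg adjusted p = 0.0457). The call was lost when any library but cadmium replicate 1 was left out, and scaling to whole libraries gave an adjusted p of 0.0861 in the same test. The other 2 tested AIL5 clusters had log2 fold changes of −0.46 and −1.42 and did not pass. Summed over all 4 clusters, AIL5 was at 108, 95.6 and 105 CPM in control and 106, 165 and 213 CPM in cadmium, with the lowest cadmium library inside the control range. The sum passed narrowly (log2 fold change 0.65 ± 0.24, edgeR quasi-likelihood over name sums, Benjamini-Hochberg adjusted p = 0.046), but not with whole-library totals (0.29) or when any library but cadmium replicate 1 was left out. AIL1 was low in both groups, at 1.47 to 9.39 CPM in control and 7.60 to 18.8 CPM in cadmium over 2 clusters, and did not pass.

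ANT had 21 clusters, of which 12 were tested, with 0 higher, 1 lower and a median log2 fold change of −0.43. At an unadjusted p below 0.05 there were 0 higher and 3 lower, as with DESeq2, and limma on log2(FPKM + 1) gave 0 and 5. Scaled to whole libraries, 4 were lower and 0 higher, and the median was −0.78. Cluster-9033.25359 (739 bases) fell from 292, 238 and 275 CPM to 153, 150 and 183 CPM. All cadmium libraries were below all controls, with a log2 fold change of −0.73 ± 0.14 (SE, n = 3 per group, edgeR quasi-likelihood, Benjamini-Hochberg adjusted p = 0.0118). Without cadmium replicate 2 or control replicate 1 the adjusted p was 0.0538 and 0.0539. Of the ANT clusters that did not pass, Cluster-9033.31640 was at 157, 129 and 142 CPM in control and 109, 98.3 and 99.5 CPM in cadmium (−0.48 ± 0.16, adjusted p = 0.0646, and 0.00999 with whole-library totals). Cluster-9033.31634 overlapped between the groups, at 124, 74.3 and 133 CPM in control and 105, 136 and 116 CPM in cadmium (0.11 ± 0.26, adjusted p = 0.798).

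The ANT sum over all 21 clusters was 1014, 767 and 956 CPM in control and 676, 675 and 741 CPM in cadmium. It fell by 0.39 in log2 (SE 0.11, n = 3 per group, edgeR quasi-likelihood over name sums, Benjamini-Hochberg adjusted p = 0.015). That call ended without cadmium replicate 1, cadmium replicate 2, control replicate 1 or control replicate 3. With whole-library totals the log2 fold change of the ANT sum was −0.75 (adjusted p = 0.000579 in the same test). A pair of ANT clusters was seen in 1 library each: Cluster-16228.0 at 22.3 CPM in cadmium replicate 3 and Cluster-16228.3 at 19.5 CPM in cadmium replicate 2, both at 0 in the other libraries. Against 3 counts over the control group these are at least 9.71-fold and 7.84-fold higher, each resting on a single library. Cluster-16228.3 is 1 of 3 clusters with the same best NR hit. Together these stood at 67.0, 46.2 and 58.1 CPM in control and 74.8, 70.2 and 60.2 CPM in cadmium. That sum overlapped and did not pass (0.26 ± 0.22, edgeR quasi-likelihood over NR sums, Benjamini-Hochberg adjusted p = 0.339).

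AP2, the name giver of the domain and in Arabidopsis a regulator of sepal and petal identity, seed size and the shoot meristem, was lower in cadmium roots. Its 20 clusters summed to 2087, 1826 and 1925 CPM in control and 1091, 1037 and 940 CPM in cadmium. The sum fell by 0.93 in log2 (SE 0.08, n = 3 per group, edgeR quasi-likelihood over name sums, Benjamini-Hochberg adjusted p = 2.13e-05), and did so without any 1 library and with whole-library totals (−1.29). Of 10 tested AP2 clusters 6 fell and 0 rose (8 and 0 at an unadjusted p below 0.05, 9 and 0 with DESeq2 or limma), with a median of −1.94, beside 15.8% of all regulators higher and 14.6% lower. The groups did not overlap for 9 of the 10, beside 53.5% of all clusters tested.

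The AP2 clusters fell to different degrees. Cluster-9033.87593 stood at 456, 355 and 427 CPM in control and 85.2, 167 and 88.6 CPM in cadmium, a log2 fold change of −1.86 ± 0.30 (SE, n = 3 per group, edgeR quasi-likelihood, Benjamini-Hochberg adjusted p = 0.00557). Cluster-9033.87595, with the same sesame protein as best hit, stood at 91.3, 76.6 and 98.0 CPM and at 14.1, 5.86 and 9.63 CPM (−3.15 ± 0.42, adjusted p = 0.00272). Cluster-9033.100861 stood at 171, 136 and 190 CPM and at 60.8, 49.7 and 55.4 CPM (−1.58 ± 0.20, adjusted p = 0.00224). In each of the 3 every cadmium library was below every control. With 3 further clusters of that sesame APETALA 2-like protein, they summed to 797, 643 and 773 CPM in control and 184, 222 and 168 CPM in cadmium, a fall of 1.95 in log2 (SE 0.13, edgeR quasi-likelihood over NR sums, Benjamini-Hochberg adjusted p = 2.04e-06).

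A second set of AP2 clusters has the snapdragon protein LIPLESS1 as its best NR hit, an AP2 relative known from petal development in that species. Cluster-9033.62401 stood at 157, 131 and 166 CPM in control and 35.4, 36.6 and 27.4 CPM in cadmium. It fell by 2.18 on the log2 scale with no overlap (SE 0.22, n = 3 per group, edgeR quasi-likelihood, Benjamini-Hochberg adjusted p = 0.000957). Cluster-9033.90782 stood at 33.2, 30.0 and 42.6 CPM and at 2.25, 9.36 and 7.66 CPM (−2.41 ± 0.59, adjusted p = 0.0261), a call lost without cadmium replicate 3 or any 1 control library. The 6 LIPLESS1-type clusters summed to 206, 178 and 222 CPM in control and 64.0, 63.4 and 45.5 CPM in cadmium.

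Other AP2 clusters differed less or did not pass. Cluster-9033.66099 stood at 516, 497 and 454 CPM in control and 376, 332 and 320 CPM in cadmium, a fall of 0.52 in log2 (SE 0.10, n = 3 per group, edgeR quasi-likelihood, Benjamini-Hochberg adjusted p = 0.0132), lost without cadmium replicate 2 or control replicate 1. Cluster-9033.24046 was at 358, 340 and 356 CPM in control and 316, 252 and 264 CPM in cadmium, with no overlap but no pass (−0.34 ± 0.12, adjusted p = 0.0808, and 0.0057 with whole-library totals). Cluster-9033.87596 and Cluster-9033.24044, outside the naming rule and chosen after their values were seen, did not pass although their groups lay apart. The former was at 77.6, 80.9 and 68.5 CPM in control and 22.7, 0 and 15.5 CPM in cadmium (−2.55 ± 1.10, adjusted p = 0.134). The latter was at 43.8, 54.0 and 46.1 CPM in control and 9.01, 22.01 and 3.80 CPM in cadmium (−2.03 ± 0.68, adjusted p = 0.0706, and 0.0413 with whole-library totals). Cluster-9033.66099 and Cluster-9033.24046 together made up 40.8 to 45.1% of the AP2 level in the control libraries and 56.2 to 63.1% in the cadmium libraries.

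**Figure D4:**
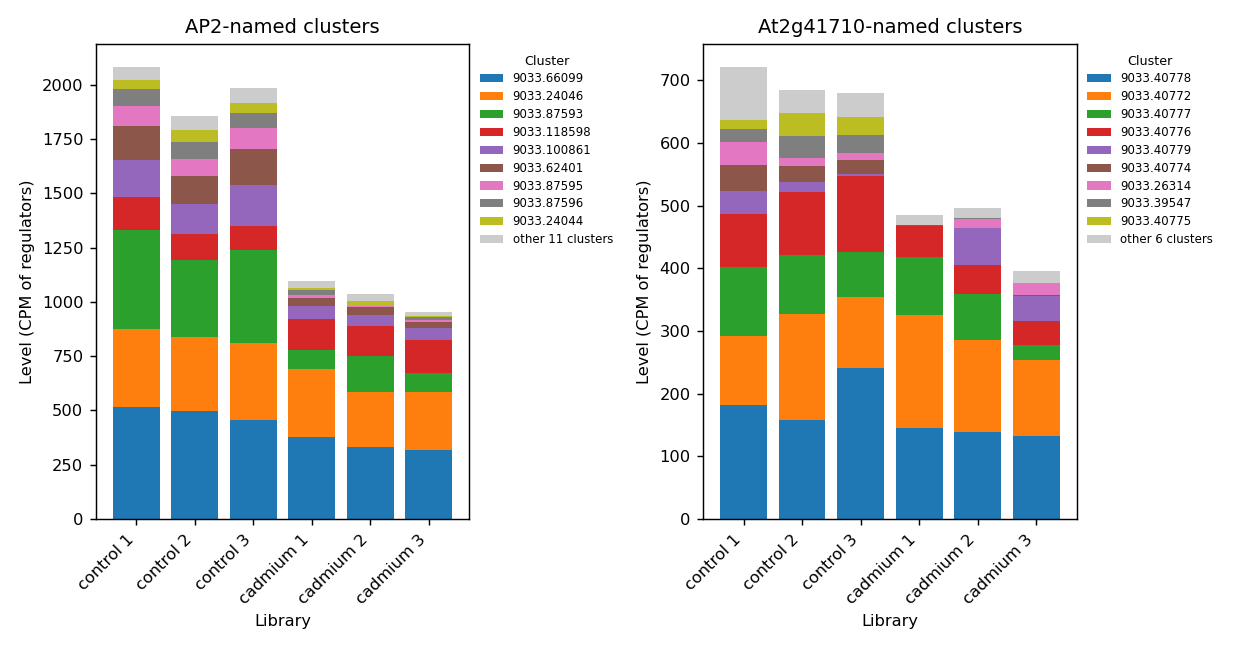
CPM of the clusters named AP2 (20 clusters) and At2g41710 (15 clusters) stacked by library, with the 9 clusters of highest mean drawn singly and the rest joined. Each bar's height is the sum of the single-cluster CPM of the name in that library. These are scaled by the fit over clusters, so the heights differ slightly from the name sums in the text. In cadmium the AP2 bars are shorter and Cluster-9033.66099 and Cluster-9033.24046 fill a larger part of them.

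RAP2-7 and TOE2, which hold back flowering in Arabidopsis, did not pass the test in sum. RAP2-7 summed over 15 clusters to 822, 813 and 784 CPM in control and 865, 715 and 771 CPM in cadmium, overlapping between the groups (log2 fold change −0.04 ± 0.08, edgeR quasi-likelihood over name sums, Benjamini-Hochberg adjusted p = 0.697). With whole-library totals that sum was lower in cadmium (−0.40, adjusted p = 0.00166). TOE2, a single cluster, was at 49.6, 32.4 and 54.6 CPM in control and 65.5, 70.2 and 53.2 CPM in cadmium and did not pass.

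RAP2-7 clusters grouped by their best NR hit differed from each other. Cluster-9033.97814 stood at 16.5, 27.2 and 8.89 CPM in control and at 0 in every cadmium library, a drop of at least 19.8-fold when 3 counts over the cadmium group are taken as the floor (edgeR quasi-likelihood, Benjamini-Hochberg adjusted p = 0.0154, lost without control replicate 1 or control replicate 2). Cluster-9033.97815, with the same best NR hit, fell from 198, 200 and 172 CPM to 150, 126 and 107 CPM (−0.58 ± 0.17, adjusted p = 0.0488), a call that held in 1 of the 6 fits with a library left out. The 4 clusters with this Erythranthe RAP2-7 protein summed to 225, 232 and 205 CPM in control and 158, 129 and 114 CPM in cadmium (−0.72 ± 0.15, edgeR quasi-likelihood over NR sums, Benjamini-Hochberg adjusted p = 0.00216). The 4 clusters of a sesame RAP2-7 protein, 1 of them named AP2, summed to 495, 454 and 438 CPM in control and 644, 516 and 607 CPM in cadmium (0.35 ± 0.10, adjusted p = 0.0154 in the same test). That call was lost without cadmium replicate 1, control replicate 2 or control replicate 3. With whole-library totals the sum was level between the groups in log2 fold change (−0.0025, adjusted p = 0.982). Its most abundant cluster, Cluster-9033.118599, overlapped between the groups, at 227, 218 and 186 CPM in control and 285, 164 and 233 CPM in cadmium (0.11 ± 0.22, adjusted p = 0.746).

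At2g41710 and At1g16060 are Arabidopsis AP2-like loci. At1g16060 (ADAP) is known from abscisic acid and drought response, and for At2g41710 no role is given here. At2g41710 had 15 clusters that summed to 723, 674 and 658 CPM in control and 483, 496 and 391 CPM in cadmium, with no overlap. The sum fell by 0.59 in log2 (SE 0.10, n = 3 per group, edgeR quasi-likelihood over name sums, Benjamini-Hochberg adjusted p = 0.00133), without any 1 library and with whole-library totals as well.

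Within At2g41710 the clusters shifted unequally, and 4 of the 10 tested fell. Cluster-9033.39547 stood at 21.6, 34.1 and 29.7 CPM in control and 0, 1.19 and 0 CPM in cadmium (log2 fold change −6.16 ± 1.05, edgeR quasi-likelihood, Benjamini-Hochberg adjusted p = 0.00676). Cluster-9033.40774 went from 42.5, 26.0 and 21.8 CPM to 2.27, 0.861 and 2.39 CPM (−3.82 ± 0.65, adjusted p = 0.00669). Cluster-9033.40775 was at 14.1, 38.1 and 27.6 CPM in control and at 0 in each cadmium library, at least 29.7-fold lower (adjusted p = 0.00988). These 3 clusters were near or at 0 in every cadmium library. Cluster-9033.40776 stood at 84.7, 101 and 121 CPM in control and 49.0, 46.3 and 37.7 CPM in cadmium (−1.20 ± 0.25, adjusted p = 0.0136), with no overlap. All 4 calls held without any 1 library. The most abundant clusters did not pass: Cluster-9033.40778 was at 182, 157 and 240 CPM in control and 145, 139 and 132 CPM in cadmium (−0.47 ± 0.19, adjusted p = 0.109), and Cluster-9033.40772 at 110, 170 and 114 CPM and 181, 146 and 122 CPM (0.19 ± 0.25, adjusted p = 0.614).

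At1g16060, over 5 clusters, summed to 68.9, 76.1 and 82.9 CPM in control and 61.4, 60.1 and 48.8 CPM in cadmium, lower in all 3 cadmium libraries (−0.42 ± 0.20, edgeR quasi-likelihood over name sums, Benjamini-Hochberg adjusted p = 0.1). With whole-library totals it passed (−0.79, adjusted p = 0.00843).

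Per length, in the authors' FPKM, which divide by transcript length and library size, the highest members in control were an ANT and an AP2 cluster. ANT Cluster-9033.25359 was at 34.6 ± 4.01 FPKM (SD, n = 3) and AP2 Cluster-9033.66099 at 33.1 ± 2.07 FPKM in control, and they stood at 16.6 ± 2.17 and 18.3 ± 1.14 FPKM in cadmium. AP2 Cluster-9033.87593 followed at 22.7 ± 3.21 FPKM in control, below the other 2 by more than the SDs, and was at a mean of 4.94 FPKM in cadmium. AIL7 Cluster-9033.13602 moved from 2.52 to 10.4 FPKM and PLT2 Cluster-9033.154776 from 0.797 to 3.00 FPKM.

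Lists of genes around these factors gave the following counts beside the background of 15.8% higher and 14.6% lower. Squamosa promoter-binding proteins, some of which in Arabidopsis act in the age pathway that raises miR172, counted 10 clusters up and 2 down among 59 tested. Their median log2 fold change was 0.11. The list was not limited to the names of that pathway, and clusters named SPL12 were among the higher ones. The whole list summed to 7431 to 7512 CPM in control and 10471 to 10840 CPM in cadmium, and miR172 itself was not analysed here. Auxin response factors 5, 7 and 19, which act upstream of PLETHORA genes, counted 6 clusters up and 4 down among 27 tested. Their median was −0.07, with sums of 4729 to 5100 CPM in control and 6643 to 7864 CPM in cadmium. The lateral root list had 5 higher, all named LBD16, and 0 lower of 15 (edgeR), with 0 lower also at an unadjusted p below 0.05 and with DESeq2, and 1 lower with limma. That list had a median log2 fold change of 0.18 and summed to 350 to 487 CPM in control and 850 to 1238 CPM in cadmium. Its LBD16 clusters alone summed to 53.4 to 103 CPM and 538 to 800 CPM. The root stem cell niche list of SHORT-ROOT, SCARECROW and WOX5 had 0 called of 9 tested in edgeR, with a median of −0.11. At an unadjusted p below 0.05 it had 1 higher and 3 lower, with DESeq2 1 and 2, and with limma 1 and 4. WRI1, a seed oil regulator in the same domain clade but outside the naming rule, had 1 higher and 2 lower of 11. No cluster matched the TOPLESS corepressors by name.

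The authors' deposited table gave a q-value for 95 of the members, below 0.05 for 20, with 5 higher and 15 lower. Over all clusters of the authors' deposited table, 8.95% were higher and 10.2% lower at that limit. Of the 20 members, 14 were also called here in the same direction. The members called in the authors' deposited table and not here were 2 BBM1 clusters, 1 PLT1, 2 AP2 and 1 At2g41710 cluster. Among these, BBM1 Cluster-9033.801 and At2g41710 Cluster-9033.39545 were too low for the test here, and the others were tested and did not pass. The members called here and not in the authors' deposited table were AIL5 Cluster-9033.14385 (q = 0.1435) and RAP2-7 Cluster-9033.97815 (q = 0.1657).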

How the data were processed

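Bowtie2 2.0.6 and TopHat2 2.0.12 appear in the submitters' processing notes without a role; assembler and counting tool are not stated in what was at hand. The authors deposited expected counts per cluster and library with no scaling to depth, and FPKM, per the file headers; the FPKM were checked to follow count, length and library total. Their deposited log2 ratio of cadmium over control and its q-value come, per the file headers, from a comparison whose test is not stated. Names are best Swiss-Prot or NR hits, and near-identical clusters may share reads.

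Expected counts were rounded and fitted over all regulators with edgeR 4.0.16 in R 4.3.3: filterByExpr (minimum count 10, minimum total 15), TMM, quasi-likelihood with group as the only term, Benjamini-Hochberg at 0.05. The SE of a log2 fold change is that value over the root of its F, and the common biological coefficient of variation was 0.573. Library totals (18619728 to 23343050) were recovered from count, FPKM and length over clusters above 300 counts and 10 FPKM. A group at 0 gives a bound against 3 counts over the group, for counting error only. The fit was tested on simulated counts that were set to less spread between libraries than these data had. That test therefore does not measure its error rate here. Regulator totals per library are in the results, and p-values measure the spread between the libraries of a group.

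Members and lists were chosen with earlier results of these data known. The naming rule takes every called member, the 2 highest uncalled ones in each subgroup, and members with a group at 0 and at least 10 counts in a library of the other. The labels do not say whether replicate numbers pair libraries, so the numbers entered only an alternative fit. Alternatives were RLE factors, whole-library totals, other filters, DESeq2 1.42.0, limma 3.58.1 on log2(FPKM + 1 or 0.1), each library left out, the replicate block, and sums over best Swiss-Prot or NR protein. Python 3.11.15 with pandas 2.3.3, numpy 2.4.6 and matplotlib 3.10.9 prepared tables and figures.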

Additional observations from a re-analysis of the deposited data

How the results depend on the processing

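The count of changed regulators, 1476 of 4844, was 886 with the replicate number as a block and 1136 to 1215 with a library left out. It was 851 of only 1501 proteins with Swiss-Prot sums, a larger share. Among clusters tested in edgeR, where 767 were higher and 709 lower, DESeq2 called 1024 higher and 981 lower. There limma on log2(FPKM + 1) called 707 higher and 1442 lower. The DESeq2 counts of members below include members not tested in edgeR. Members higher, 3 in the report, were 8 with DESeq2, 5 with limma on log2(FPKM + 1) and on log2(FPKM + 0.1), 7 with NR sums, 5 with Swiss-Prot sums and 2 to 3 with a library left out. Members lower, 13 in the report, were 21 with whole-library totals, 21 with DESeq2, 24 and 23 with limma at + 1 and + 0.1, 8 with the replicate block, 3 with Swiss-Prot sums and 8 to 14 with a library left out. The sums count proteins rather than clusters; the cause of the other shifts was not tested.

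For the sums, 3 further settings were chosen after seeing the data. Leaving out a library gave 4 to 5 names higher and 2 to 3 lower, or 5 to 7 NR proteins higher and 10 to 12 lower. Whole-library totals gave 5 names lower in place of 3. The replicate block gave 5 and 3 names, with AIL5 lost (adjusted p = 0.053) and BBM gained (adjusted p = 0.018), and 7 and 10 NR proteins.

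No called member changed direction in any alternative run, and 10 of the 16 were called in every left-out fit. The correlations of same-numbered libraries were 0.005, 0.029 and −0.004. With the replicate block 5 of 16 called members did not pass.

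Among the 6 uncalled members that the naming rule selected, 3 with small fold changes changed sign. Others outside that rule did so too, such as AP2 Cluster-9033.118598, at 0.17 in the main fit and −0.18 with whole-library totals. Values with sums are those of all clusters summed, not of the cluster. ANT Cluster-9033.31634 was at −0.24 with whole-library totals, −0.17 and −0.19 with limma, its NR sum at −0.42, its Swiss-Prot sum at −0.39, and the cluster at −0.11 to 0.26 with a library left out. RAP2-7 Cluster-9033.118599 was at −0.24 with whole-library totals, −0.24 and −0.25 with limma, its Swiss-Prot sum at −0.041, and the cluster at −0.074 to 0.33 with a library left out. At2g41710 Cluster-9033.40772 was at −0.16 with whole-library totals, −0.12 and −0.14 with limma, its NR sum (13 clusters) at −0.55 and its Swiss-Prot sum (15 clusters) at −0.59. Depth limits the PLT1, BBM and BBM1 clusters, which hold few counts in control.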

Other observations

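WRI1, a regulator of seed oil synthesis in Arabidopsis and an AP2-clade relative outside the naming rule, had neighbouring cluster numbers that went opposite ways, an example chosen after its values were seen. Cluster-9033.61396 stood at 57.9, 105 and 74.3 CPM in control and 0, 0 and 9.22 CPM in cadmium, a log2 fold change of −4.59 ± 1.36 (SE, n = 3 per group, edgeR quasi-likelihood, Benjamini-Hochberg adjusted p = 0.0486). Cluster-9033.61398 stood at 0, 0 and 3.67 CPM in control and 105, 80.4 and 65.5 CPM in cadmium, a log2 fold change of 5.88 ± 1.19 (adjusted p = 0.0132 in the same test). All 27 WRI1 clusters together were at 758 to 938 CPM in control and 567 to 728 CPM in cadmium, so the sum was lower in every cadmium library.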
